A study of Danio rerio with 15 samples.

Results

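The effect of scaf1 genotype on skeletal muscle RNA that was shared by fish on both diets was examined in 15 libraries from adult female zebrafish, which is every library of the series. The members were chosen by genotype alone. All 8 scaf1-/- fish (KO) were compared with all 7 scaf1+/+ fish (WT), with diet as an additive term, and only differences with the same sign on both diets are described. KO fish carried the Δ1 allele, a CRISPR/Cas9 null allele with a premature stop codon, and WT fish came from sibling lines of the same founder. Fish were 7 months old at the start and were fed for 6 weeks. The labels give 3 dry feeds per day for the standard diet and 5 for the double diet, at 13 fish in 2 l tanks. For the diet experiment the study's methods give other numbers of dry feeds and of fish per tank, and add a live feed on both diets. Their general husbandry section gives the same 13 fish per 2 l tank. There were 4 KO and 4 WT fish on the standard diet, and 4 KO and 3 WT fish on the double diet. All mutants carried a single allele, so a property of that line and loss of Scaf1 cannot be told apart. The labels do not say which fish shared a tank, and p-values measure the spread between these libraries.

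Scaf1, also named Cox7a2l or Cox7a3, is a mitochondrial protein that joins respiratory complex III to complex IV in a supercomplex. Skeletal muscle is rich in mitochondria, and fast and slow fibres differ in how far they rely on oxidative phosphorylation. Loss of Scaf1 removes this link between the complexes. The question of the pooled comparison is which muscle transcripts differ between mutant and wild-type fish whichever diet they were given.

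The values are estimated counts for 57775 Ensembl transcripts per fish, and a level is given here in CPM, the count scaled to a common library total. Transcript identifiers are printed without gene names because the tables used here pair none of them with a gene. For the same reason scaf1 itself, muscle markers and lists of respiratory chain genes were not analysed here, and the genotype and tissue labels were not checked on transcript levels. Of 15 libraries, 14 held between 11671308 and 15844496 counts. The library WT Standard Diet replicate C held 4045333 counts and 15655 transcripts with a count, while the other libraries had between 27748 and 35800 such transcripts. The main results are therefore given with and without that library.

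Few single transcripts were called different between the genotypes by edgeR, and more by DESeq2. The lack of a call does not show equal levels. A transcript was called when its edgeR quasi-likelihood test gave a Benjamini-Hochberg adjusted p under 0.05 with a log2 fold change beyond 1 and one sign on both diets. Over all 15 fish, 1 of 26970 tested transcripts was called (0.00371%), and it was higher in KO. No transcript was called lower in KO. At an unadjusted p under 0.05, 1851 transcripts were found, whatever their sign on each diet. With one sign on both diets, 1072 (3.97% of those tested) were higher and 775 (2.87%) lower in KO. DESeq2 called 125 of the 47752 transcripts it tested (0.262%), of which 39 (0.0817%) were higher and 86 (0.18%) lower in KO. Of these 125, 20 had no count in one genotype. Without replicate C, edgeR called 14 of 26862 transcripts (0.0521%), 10 higher (0.0372%) and 4 lower (0.0149%) in KO, and 4475 had an unadjusted p under 0.05. Of these 4475, 2390 (8.90% of those tested) were higher and 2083 (7.75%) lower in KO with one sign on both diets. DESeq2 then called 500 of 48079 (1.04%), with 216 higher (0.449%) and 284 lower (0.591%), and 44 of the 500 had no count in one genotype. For neither fit is the share of such transcripts among all that DESeq2 tested given here, so these numbers cannot be set against it. All but 1 of the 14 edgeR calls were among those 500. When any 1 of the KO fish on the double diet was left out as well, edgeR called 0 transcripts. The biological coefficient of variation, the relative spread between fish of one group, was 0.854 over all fish and 0.759 without replicate C.

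The transcript called over all 15 fish was ENSDART00000138599.2, which is 910 bases long. On the double diet its level in the 4 KO fish was 15.2, 18.8, 17.5 and 6.65 CPM, and on the standard diet it was 8.02, 0, 7.04 and 20.3 CPM. All WT fish had no count except WT Standard Diet replicate 7, with 0.0741 CPM. Thus 7 of 8 KO fish were far above every WT fish, and KO Standard Diet replicate A overlapped them at 0. The KO mean was 11.7 ± 7.24 CPM (SD, n = 8) and the WT mean 0.0106 ± 0.028 CPM (SD, n = 7). The log2 fold change was 9.68 with a standard error of 1.27 and an edgeR adjusted p of 0.0374. It was 8.98 on the standard and 11 on the double diet, and the interaction of genotype and diet had an unadjusted p of 0.443 in edgeR. The WT mean lay under the level of 3 counts per library averaged over the WT libraries, 0.304 CPM. The size of these fold changes is therefore not resolved, and over the alternative settings it ran from 3.5 to 10.7 on the log2 scale. Without replicate C the edgeR adjusted p was 0.0452. The call was kept when KO Standard Diet replicate A was left out, with an edgeR adjusted p of 7.65e-05, and lost when any fish other than that one or replicate C was, with an adjusted p of up to 0.303.

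ENSDART00000133704.3, of 2757 bases, was counted in KO alone. The 4 KO fish on the double diet had 1.36, 0.599, 1.26 and 0.672 CPM and the 4 on the standard diet had 1.58, 1.16, 0.689 and 0.646 CPM. No WT fish had a count, so the genotypes did not overlap on either diet. The KO mean of 0.995 ± 0.386 CPM (SD, n = 8) was at least 3.27-fold higher than the level of 3 counts per library averaged over the WT libraries, 0.304 CPM, and at least 4.30-fold higher without replicate C. The edgeR adjusted p was 0.0536 over all 15 fish and 0.0452 without replicate C. The level was low, close to the smallest that these depths resolve.

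The reverse pattern was seen for ENSDART00000106252.6, of 2874 bases. No KO fish had a count on either diet. WT fish had 19.9, 3.15 and 5.76 CPM on the double diet and 5.26, 28.5, 3.00 and 5.69 CPM on the standard diet. Every WT fish, replicate C included, was above every KO fish, although WT fish differed among themselves by far more than counting error. The WT mean was 10.2 ± 9.98 CPM (SD, n = 7), and the KO level was at least 46.6-fold lower, taking 3 counts per library averaged over the KO libraries (0.218 CPM) as the limit. Without replicate C the limit on the fold was 50.1. This transcript did not pass the threshold in edgeR, with an adjusted p of 0.0536 over all fish and 0.0512 without replicate C, while DESeq2 gave an adjusted p of 3.16e-16 over all fish.

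ENSDART00000189135.1, of 1785 bases, also had no count in any KO fish. Its level in WT fish was 6.5, 5.08 and 2.32 CPM on the double diet, and 13.0, 10.9, 2.91 and 0 CPM on the standard diet. The WT fish without a count was replicate C, and the other 6 were all above the KO fish. Against the same 3-count limit the KO level was at least 26.6-fold lower over all fish and at least 31.1-fold lower without replicate C. It was called lower in KO without replicate C, with an edgeR adjusted p of 0.0452, and not over all 15 fish, where the adjusted p was 0.156.

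**Figure D1:**
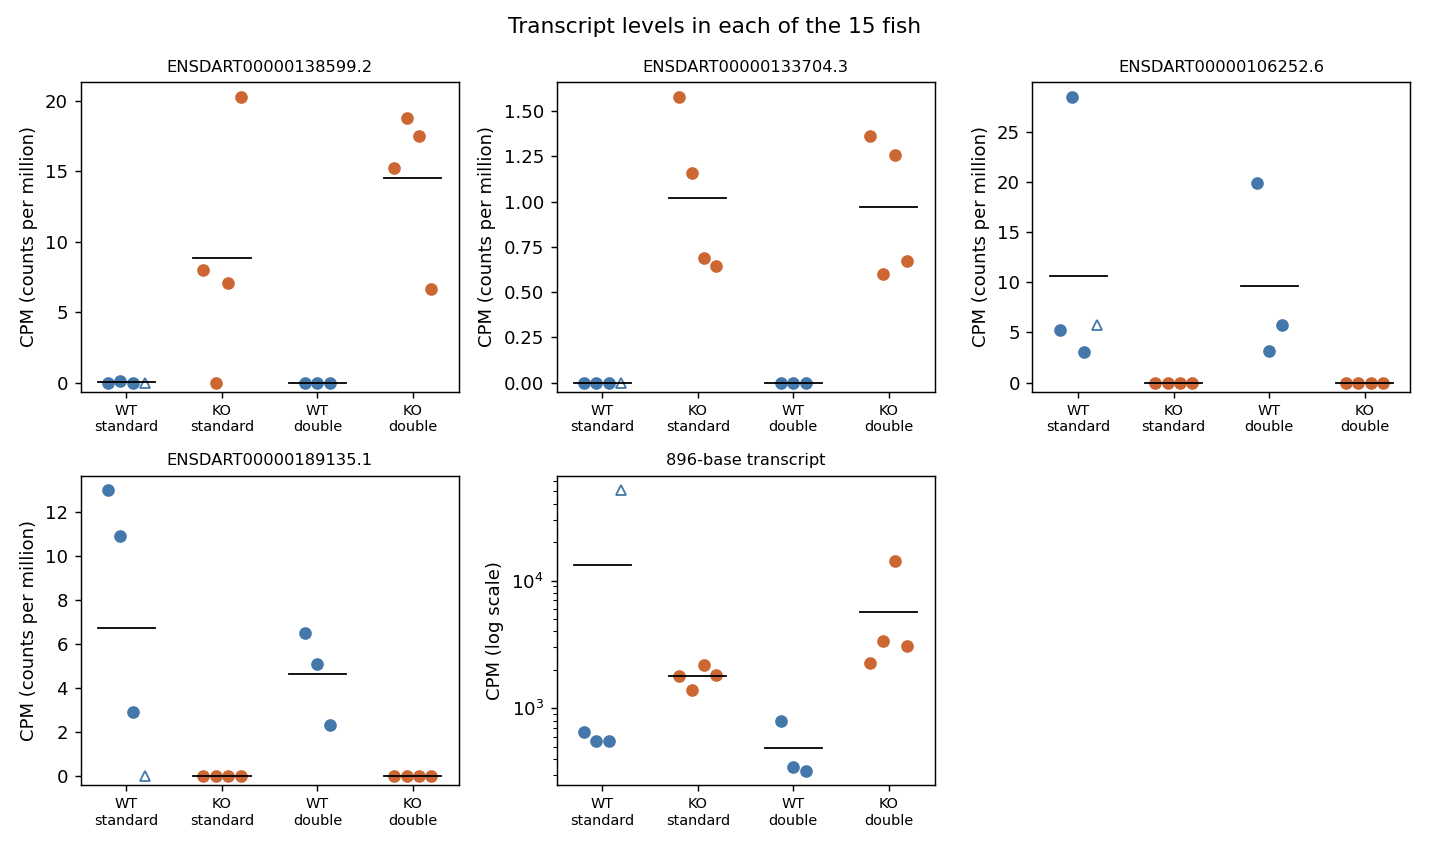
Level of 5 transcripts in CPM (vertical axis; a log scale for the 896-base transcript) in each fish by genotype and diet (blue WT, orange KO, line the group mean); the open triangle is WT Standard Diet replicate C. No KO fish had a count of ENSDART00000106252.6 or ENSDART00000189135.1, and for the 896-base transcript replicate C, at 51400 CPM, lies above every KO fish.

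ENSDART00000133704.3, ENSDART00000106252.6 and ENSDART00000189135.1 were among 8 transcripts that were counted in each fish of one genotype and in none of the other, with replicate C allowed to lack a count. Of the 57775 transcripts, 6 (0.0104%) had no count in KO and 2 (0.00346%) had none in WT. Only the 6 were found with the allowance for replicate C, so the numbers 6 and 2 do not come from equal rules. The 6 transcripts without a count in KO were between 495 and 2874 bases long, with WT means between 0.0661 and 10.2 CPM. In replicate C, 5 of these 6 had no count, and 2 of the 6 did not pass the filter on low counts. The 495-base transcript lay below the 3-count limit in both genotypes, and no fold is given for it. The second transcript without a count in WT was 3768 bases long and had a KO mean of 8.64 CPM, at least 28.4-fold above the WT limit, with an edgeR adjusted p of 0.162. These transcripts were found by this pattern, so their separation is a description.

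Removal of replicate C decided most of the calls higher in KO. Of the 10 transcripts called higher without it, 7 had the opposite sign over all 15 fish. Their log2 fold changes ran from 1.69 to 3.14 without replicate C and from -1.49 to -0.73 with it, and none passed the threshold with it. In replicate C these 7 transcripts were at 316 to 51400 CPM, while their KO means were 10.6 to 3740 CPM and their means in the other WT fish 1.86 to 539 CPM. Only 3 of the 10 kept their direction: both transcripts higher in KO described above and a 2430-base transcript. This last one had a log2 fold change of 1.02 without replicate C and 1.03 with it, at an edgeR adjusted p of 0.0452 and 0.156. All 4 transcripts called lower kept their direction with replicate C, at edgeR adjusted p-values from 0.156 to 0.438.

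The most abundant called transcript, of 896 bases, was one of these 7. On the standard diet the 4 KO fish had 1800, 1380, 2180 and 1820 CPM, and on the double diet 2260, 3350, 14100 and 3050 CPM. WT fish had 800, 350 and 325 CPM on the double diet and 650, 555 and 554 CPM in replicates 6, 7 and B on the standard diet. Replicate C had 51400 CPM. Without replicate C all 8 KO fish were above all 6 WT fish, with a log2 fold change of 3.14 ± 0.503 (SE) and an edgeR adjusted p of 0.0472. With it the log2 fold change was -0.88 with an adjusted p of 0.907, and its sign differed between the diets.

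A 17239-base transcript was called lower in KO without replicate C, although every KO fish had a count. KO fish had between 0.575 and 1.51 CPM, a narrow range. The 6 WT fish other than replicate C had 16, 9.54, 1.05, 22.9, 10 and 8.14 CPM, and WT Double Diet replicate 4, at 1.05 CPM, overlapped the KO fish. Replicate C had no count. The log2 fold change was -2.78 without replicate C, with an edgeR adjusted p of 0.0472, and -2.58 with it, with an adjusted p of 0.438.

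**Figure D2:**
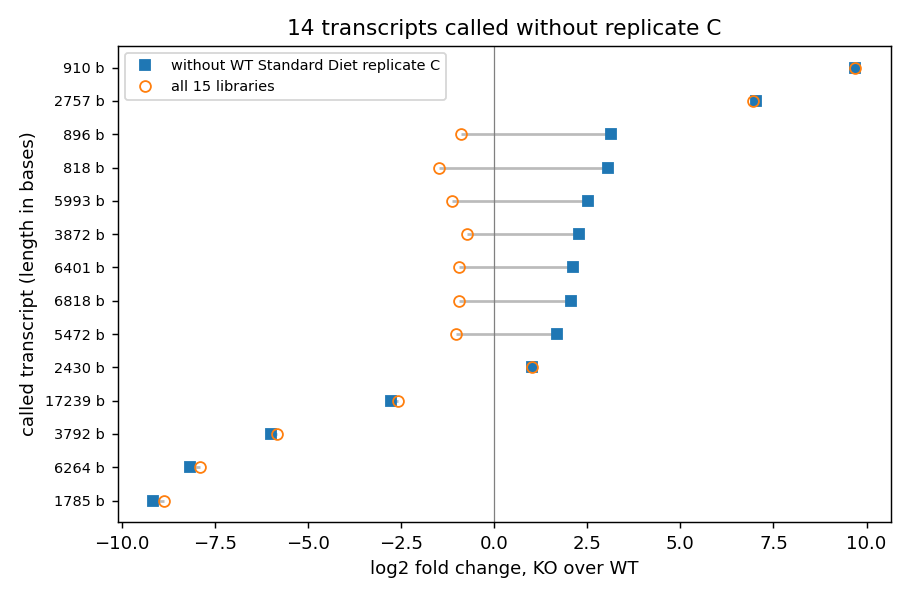
Log2 fold change of KO over WT (horizontal axis) for the 14 transcripts called without WT Standard Diet replicate C, 1 per row and named by length in bases; squares are the 14 fish without replicate C, open circles all 15 fish. Of the 10 transcripts higher in KO, 7 cross 0 when replicate C is included, and the 4 lower in KO do not.

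The 12 transcripts with the smallest p in each direction over all 15 fish were taken among those at 1 CPM or more in the higher genotype. They were chosen by that p and are described without a further test. The lists include the transcript called over all 15 fish. Of the higher ones 2, and of the lower ones 3, were called without replicate C. In KO, the higher ones had a median log2 fold change of 6.01 (1.03 to 10) and the lower ones -5.94 (-9.79 to -3.11). Of the 12 higher transcripts 8 had a log2 fold change beyond 4, as did 10 of the 12 lower ones. The share beyond 4 among all tested transcripts is not given here. The edgeR adjusted p-values ran from 0.0374 to 0.373 for the higher and from 0.0536 to 0.212 for the lower ones. In CPM from total counts, the genotypes did not overlap for 1 of the 12 in each direction. All 12 in each direction kept their sign without replicate C. That fit reused the other fish by which they were chosen, so it is no separate check. Replicate C itself had no count for 8 of the higher and 7 of the lower ones. In CPM scaled by the trimmed mean of M-values (TMM), all KO fish were above all WT fish for 10 tested transcripts (0.0371%) and below for 5 (0.0185%). Without replicate C these counts were 37 (0.138%) and 52 (0.194%). Of these, 13 of the 37 higher and 45 of the 52 lower had a mean level under 4 CPM, beside 60.1% of all tested.

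Abundant transcripts tended to be higher in KO on both diets and scarce ones lower. Transcripts were divided by their mean level over all fish, a division chosen after seeing the data. In the 325 transcripts over 256 CPM the median log2 fold change without replicate C was 1.13 on the standard and 0.59 on the double diet, and 94.2% and 93.2% of them were above 0. In the 8581 transcripts under 1 CPM the medians were -0.41 and -0.44. The classes between them followed in order. With replicate C the medians of the scarcest class were -0.29 and -0.43 and those of the most abundant class 0.50 and 0.59, and 72.9% of its transcripts were above 0 on the standard diet. At an unadjusted edgeR p under 0.05 and one sign on both diets, 178 of these 325 were higher in KO and 0 lower without replicate C, beside 8.90% higher and 7.75% lower among all tested. Over all 15 fish 37 of the 325 were higher and 0 lower, beside 3.97% and 2.87% among all. No transcript of this class was called by DESeq2 over all fish, beside 0.262% of all that it tested. Without replicate C it called 7 of the class, all higher, beside 0.449% higher and 0.591% lower among all that it tested. Fitted by diet without replicate C, 6 of the 325 (1.85%) were higher on the standard diet at an unadjusted p under 0.05. Among all tested this share was 2.49%. On the double diet 38 (11.7%) were, beside 4.96%. All 38 were also higher in standard-diet fish. With replicate C, 16 of 38 (42.1%) were, beside 72.9% of the class. The Spearman correlation between diets over the class was 0.416 without replicate C and -0.249 with it. The 325 share library composition and are not independent.

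**Figure D3:**
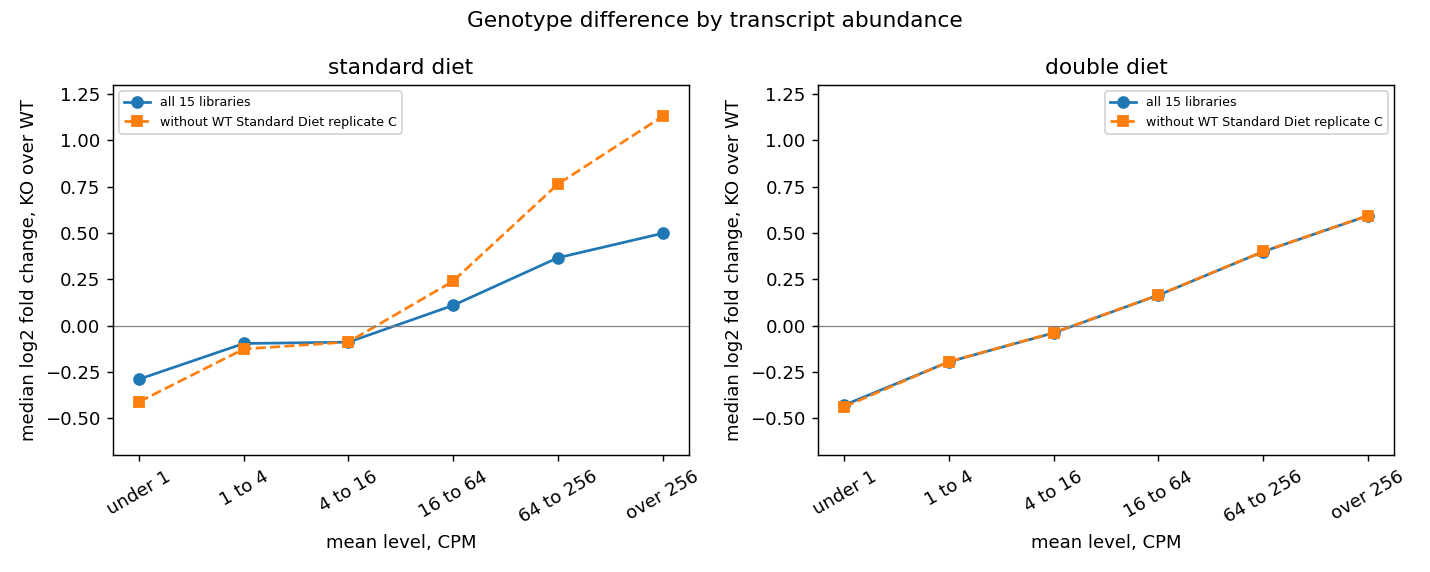
Median log2 fold change of KO over WT (vertical axis) in 6 classes of mean transcript level in CPM (horizontal axis), for each diet; circles are all 15 fish, squares the 14 without WT Standard Diet replicate C. The median rises from the scarcest to the most abundant class on both diets, to 0.59 on the double diet and to 1.13 on the standard diet without replicate C.

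The size of this pattern in single fish overlapped between the genotypes. For each fish the median deviation of the transcripts over 256 CPM was set against that of transcripts at 4 to 16 CPM, a difference that scaling of a library hardly changes. On the double diet it was 0.781, 0.328, -0.0892 and 0.644 in KO and -0.835, 0.079 and 0.0235 in WT on the log2 scale. On the standard diet it was -1.19, -0.463, 0.802 and 0.845 in KO and -1.46, -1.69, -0.218 and 1.55 in WT, the last being replicate C. The mean difference between genotypes, averaged over diets, was 0.56 over all fish (p = 0.242, two-sided exact permutation test within diets) and 0.89 without replicate C (p = 0.0416, the same exact test). The measure was chosen after the pattern was seen. Among standard-diet fish, transcript deviations of WT replicate C correlated at 0.38 and 0.39 with those of KO replicates B and C. They correlated at -0.42 and -0.35 with those of KO replicates 6 and A. WT 6 and 7 correlated at 0.35 to 0.52 with KO 6 and A and at -0.44 to -0.38 with KO B and C. These correlations share fish and are not separate observations. WT B lay between, at -0.17 to 0.12. Leaving out WT replicate C removes the WT fish most like KO B and C, which both stay. Genotype was not tested apart from this likeness.

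The composition of the libraries is given beside this pattern. The 100 most abundant transcripts of each fish took 55.1 ± 12.4% of counts (SD, n = 4) in KO and 48.7 ± 14% (n = 4) in WT on the standard diet, and 59.1 ± 4.94% (n = 4) and 52.5 ± 7.74% (n = 3) on the double diet. The genotype difference, averaged over diets, was 6.52 percentage points (p = 0.215, exact permutation within diets; 0.322 adjusted over 3 measures) and 9.35 without replicate C (p = 0.0865, exact; 0.13 adjusted). The number of transcripts with a count differed in sign between the diets over all fish, with KO minus WT at 1369 on the standard and -2865 on the double diet (p = 0.841 for their mean, exact permutation). Without replicate C it was lower in KO on both diets, by 3154 on average (p = 0.0294, exact; 0.0882 adjusted over 3 measures). On the double diet alone the genotypes did not overlap in this number, with 29270 to 30839 transcripts in KO and 32212 to 33902 in WT. Total counts differed by 1834000, the KO mean being larger (p = 0.120, exact permutation), and by 791900 without replicate C (p = 0.240, exact). With the share of the 100 most abundant transcripts as a term, edgeR called 0 transcripts with and without replicate C, with 1454 and 1763 at an unadjusted p under 0.05. In that fit the log2 fold change of ENSDART00000138599.2 was 8.58 over all fish, with an edgeR adjusted p of 0.0982. That of the 896-base transcript was 3.10 without replicate C, with an edgeR adjusted p of 0.119.

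**Figure D4:**
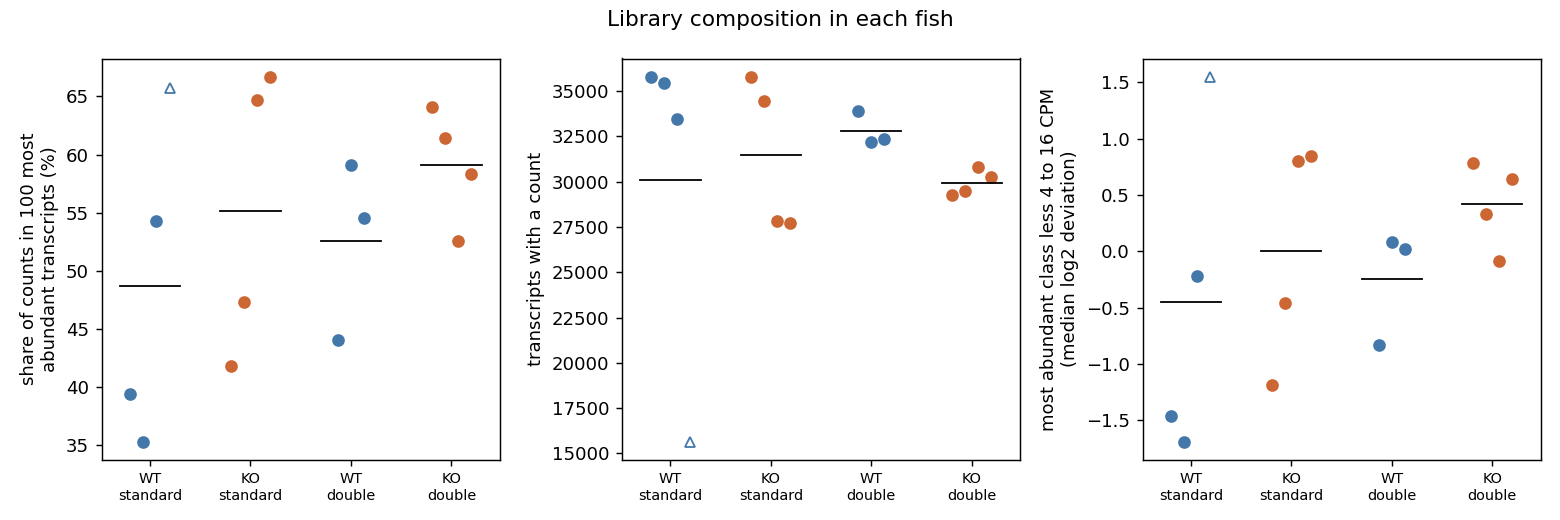
Share of counts in the 100 most abundant transcripts (left, percent), transcripts with a count (middle) and the difference between abundant and middle transcripts (right, log2) in each fish by genotype and diet; lines are group means and the open triangle is WT Standard Diet replicate C. The genotypes overlap in all 3 measures on the standard diet, and replicate C has 15655 transcripts with a count.

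Within the most abundant class, shorter transcripts were more often higher in KO without replicate C. All 18 transcripts up to 500 bases were higher at an unadjusted p under 0.05, as were 70 of 105 at 501 to 1000 bases, 54 of 103 at 1001 to 2000 bases and 26 of 65 at 2001 to 4000 bases. With replicate C the order was not seen, since 0 of the 18 shortest and 10 of the 105 next passed that threshold. Of the 18 shortest, 27.8% then had one sign on both diets.

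The diets share no fish, so the genotype difference on one diet can be set against that of other fish on the other. Each diet was fitted alone. Mutants on both diets carried the same allele, so agreement between diets cannot tell a property of that line from loss of Scaf1. Without replicate C, 669 transcripts were higher in KO at an unadjusted p under 0.05 on the standard diet, and 524 of them (78.3%) were higher on the double diet too, beside 44.3% of all tested transcripts. Of 488 lower on the standard diet, 414 (84.8%) were lower on the double diet, beside 55.1%. The median log2 fold change on the double diet was 0.58 for the former and -1.33 for the latter, and -0.11 for all. In the other direction, 77.1% of 1333 transcripts higher and 79.7% of 1128 lower on the double diet kept their sign on the standard diet. Among all tested transcripts 46.5% were higher and 53.4% lower on the standard diet. Over all tested transcripts 71.2% had one sign, with a Spearman correlation of 0.496 across transcripts, which are not independent and share library composition.

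With replicate C the sign was kept less often. Of 394 transcripts higher in KO on the standard diet 65.0% were higher on the double diet, beside 44.3% of all. Of 351 lower on the standard diet 67.2% were lower on the double diet, beside 55.1%. Of 1343 higher on the double diet 51.8% were higher on the standard diet, beside 46.1% of all. The share for transcripts lower on the double diet was 75.5%, beside 53.9%. The Spearman correlation across transcripts was 0.290. Differences between the diets were rarely called: the edgeR interaction gave 0 transcripts at an adjusted p under 0.05 over all fish, with 1044 at an unadjusted p under 0.05, and 1 without replicate C, with 916. A missing call does not show that the diets had equal genotype effects.

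**Figure D5:**
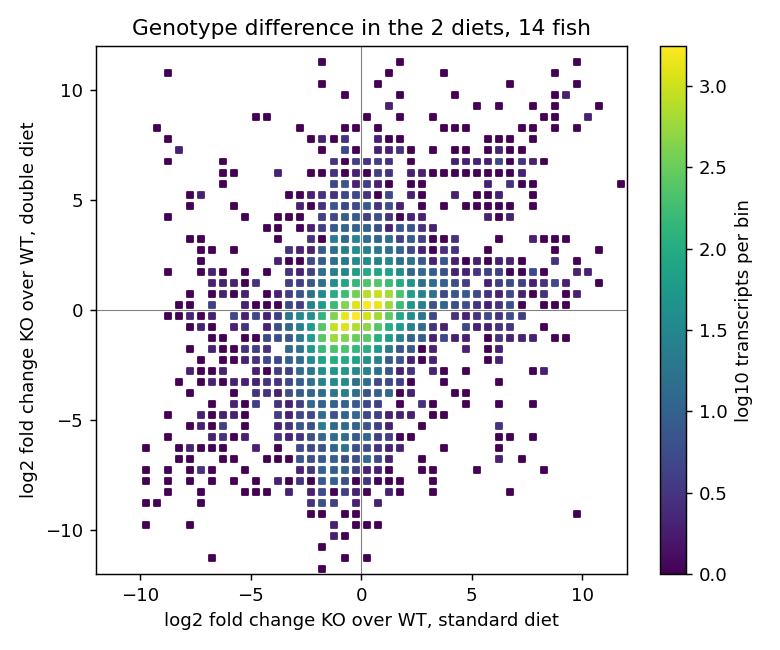
Log2 fold change of KO over WT on the standard diet (horizontal axis) against the double diet (vertical axis) for 26862 transcripts without WT Standard Diet replicate C, drawn as bins coloured by the log10 number of transcripts. Most transcripts lie near 0 on both axes, and 71.2% have one sign on both diets.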

How the data were processed

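RNA from skeletal muscle of adult female fish was sequenced on an Illumina HiSeq instrument. The authors pseudo-aligned reads to the zebrafish cDNA set of Ensembl release 94 with kallisto 0.45.0, and deposited estimated counts (expected counts) per transcript with the length in bases; the submitters' notes also name FastQC 0.11.8 and sleuth. Here the estimated counts were rounded. Transcripts passing filterByExpr (minimum count 10) entered the fit in edgeR 4.0.16 (limma 3.58.1, R 4.3.3) with TMM factors and with genotype and diet as terms. CPM values use total counts. DESeq2 1.42.0, other scalings, filters, designs and single-library omissions were alternatives. Named transcripts were those called in either fit, those with the 12 smallest p-values in each direction, and those counted in one genotype alone. The members and lists were chosen with earlier results of these data known. Gene lists, markers and per-gene sums need transcript-to-gene pairs and were not analysed here. Standard errors are the fold change divided by the square root of the quasi-likelihood F. Limits set at 3 counts cover counting error only.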

Additional observations from a re-analysis of the deposited data

Results flagged for a closer look

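In groups of 4 fish, 6 of 22 sets of values that were not all equal had a highest or lowest fish farther from the others than Dixon's 95% limit. Independent normal values pass that limit about 1 time in 20. Some of these sets were of transcripts chosen by their results in these same fish, so 6 of 22 cannot be set against that rate. KO Double Diet replicate 2 had 15453518 counts, and the other KO fish on that diet 13359354 to 13540237. WT Standard Diet replicate C had 15655 transcripts with a count, and the other fish of its group 33493 to 35766. WT Standard Diet replicate 7 had 28.5 CPM of ENSDART00000106252.6 beside 3.00 to 5.69. It also had 0.0741 CPM of ENSDART00000138599.2 where the others had none, but this is 1 count, under the 3-count limit of 0.222 CPM, and a lone count beside zeros always meets Dixon's limit. For the 896-base transcript, KO Double Diet replicate 6 had 14100 CPM beside 2260 to 3350, and WT Standard Diet replicate C had 51400 CPM beside 554 to 650.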

How the results depend on the processing

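Over all 15 fish, where edgeR called 1 transcript, median-ratio scaling and the adjusted p alone also called 1. DESeq2 called 125, limma voom with library quality weights 11, limma on log2(TPM + 0.1) 3, a fit with no diet term 3 and no filter on low counts 2. A coefficient per group (2056 at an unadjusted p under 0.05), limma on log2(TPM + 1) (1292), the share of the 100 most abundant transcripts as a term (1454) and total counts as scaling (1294) called 0. Without WT Standard Diet replicate C, where edgeR called 14, DESeq2 called 500, limma voom 91, limma on log2(TPM + 0.1) 31, no filter 22, limma on log2(TPM + 1) 3 and the share term 0. The last setting and total counts were added after seeing the data.

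Scaling moved the median log2 fold change of all transcripts, from -0.09 with TMM to -0.27 with median ratios and -0.45 with total counts. Without replicate C it was -0.10, -0.18 and -0.58, and the calls were 10 higher and 4 lower, 9 and 8, and 2 and 9. As differences of mean log2 CPM (prior count 2) rather than fitted fold changes, the median over 256 CPM stayed above 0 with each scaling on both diets (0.613, 0.408 and 0.292 on the standard diet, 0.594, 0.424 and 0.154 on the double diet). Its excess over transcripts at 4 to 16 CPM on the standard diet was 0.438 with replicate C and 1.13 without.

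Leaving out 1 fish at a time gave 0 to 14 calls over all fish, with 14 only without WT Standard Diet replicate C and 2 without KO Standard Diet replicate A. Starting without replicate C it gave 0 to 35, the most without WT Double Diet replicate 4. It gave 21 without KO Standard Diet replicate A, 9 without KO Standard Diet replicate 6 and 3 without WT Standard Diet replicate 6. Leaving out any other fish gave 0, so none of the 14 calls was kept in most of these omissions. Of the library measures, the genotype difference in transcripts with a count ran from -3154 to 197.5, in total counts from 791900 to 2366000, in the top 100 share from 4.30 to 9.35 percentage points and in the abundance contrast from 0.351 to 0.890. The 4 transcripts named by identifier kept their sign, but near-absence in one genotype fixes it. The 896-base transcript turned from 3.14 to -0.88 with replicate C.

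Replicate marks as a replicate block, within diets or across them, gave 0 calls with and without replicate C (1408 and 1867 at an unadjusted p under 0.05 over all fish, 2411 and 2864 without). Deviations of same-marked fish correlated at 0.43, 0.12 and 0.39 on the standard diet and at -0.10 and -0.17 on the double diet, and 1 of 5 such KO fish correlated best with its own mark, so the marks were not taken as pairs. Counts summed per gene and gene lists were not run. The depth of replicate C, where 3 counts are 0.742 CPM against 0.189 to 0.257 CPM in the others, limits what its zeros show. For ENSDART00000189135.1 the other WT fish had 2.32 to 13.0 CPM, and for the 17239-base transcript 1.05 to 22.9 CPM. Both ranges lie above 0.742 CPM.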
